A study of Mus musculus with 6 samples.

Results

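Small leucine-rich proteoglycans are short core proteins built of leucine-rich repeats, and together with versican and serglycin they make up the set of 10 genes described here. The members were taken by name, as every transcript probe whose gene name in the array files was Dcn, Bgn, Lum, Fmod, Ogn, Aspn, Omd, Prelp, Vcan or Srgn. They were 10 of the 37074 gene names and had 18 of the 56605 distinct probes on the array. RNA came from osteoclasts grown for 5 days with RANKL, the cytokine that drives osteoclast formation, from bone marrow cells of mice that were 6 to 8 weeks old per the culture methods. All 6 mice carried Ano1, which encodes the calcium-activated chloride channel Anoctamin 1, flanked by loxP sites. The 3 control mice were Ano1fl/fl, in which the gene is left in place, and the other 3 were Ctsk-Cre;Ano1fl/fl littermates, in which the cathepsin K gene (Ctsk) drives Cre recombinase. The comparison asks which transcripts differ in osteoclasts meant to lack Ano1.

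The model has limits that bear on the values below. No array read the Ano1 probe well above background, so it does not check the group labels, and groups are named throughout by the labels of their arrays. Cre under the cathepsin K gene acts only where that gene is active, while the RNA is from the whole culture. Ctsk and Acp5, which encode cathepsin K and tartrate-resistant acid phosphatase of osteoclasts, were well above background on all 6 arrays. Of 11 osteoclast marker genes, 8 were higher on the Ctsk-Cre;Ano1fl/fl arrays by the rule used below and none was lower. Ctsk itself was higher by 3.17 on the log2 scale, Mmp9 by 4.36 and Acp5 by 0.84. Tnfrsf11a, which encodes the RANKL receptor RANK, was lower at less than 2-fold, at -0.40 (adjusted p = 0.0339 in limma). The direction of every difference given here rests on the array labels. The differences of Ctsk, Mmp9 and Acp5 run opposite to the direction the study gives for these genes by qRT-PCR in cultures of these genotypes. The arrays shared 1 slide and 1 scan, and 33480 to 34951 of the 59305 transcript spots on an array were well above background. Correlations between arrays of a group were 0.9945 to 0.9969 across tested genes, and those between groups were 0.947 to 0.9507.

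Decorin, biglycan and asporin form class I of the small leucine-rich proteoglycans and carry chondroitin or dermatan sulfate chains or, for asporin, a run of aspartate residues. Lumican, fibromodulin, PRELP and osteomodulin form class II, and osteoglycin belongs to class III. They bind fibrillar collagens, steer the thickness of fibrils, and hold growth factors such as TGF-beta in the matrix of bone, tendon and skin, where fibroblasts and osteoblasts make most of them. Versican is a large hyaluronan-binding chondroitin sulfate proteoglycan of loose matrix, and serglycin is the intracellular proteoglycan that packs basic proteins into the granules of blood cells.

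Levels are given as log2 of the scanner software's processed signal after quantile normalization between arrays, and differences are Ctsk-Cre;Ano1fl/fl minus Ano1fl/fl on that scale. A gene was called where limma's Benjamini-Hochberg adjusted p, taken over all tested probes, was under 0.05 and the change exceeded 2-fold. Of the 10 member genes 8 could be tested, each by its probe with the highest mean, and 4 of them (Dcn, Bgn, Lum and Ogn) were called higher, against 9.89% of all 20645 genes tested. Lum and Ogn could be tested only because they were well above background on all Ctsk-Cre;Ano1fl/fl arrays, and Lum was so on 0 and Ogn on 1 of the 3 Ano1fl/fl arrays. With a filter asking for all 6 arrays, 6 members were tested and 2 (Dcn and Bgn) were called higher, against 7.02% of 18644 genes. Vcan was the only member called lower, against 7.19% of all tested genes. Fmod and Prelp also passed the test upward at less than 2-fold and Srgn downward, which made 6 members higher at any fold (23.0% of all tested genes) and 2 lower (28.5%). The 2 groups of arrays did not overlap for any of the 8 tested members, a pattern that 64.0% of all tested genes shared. By probe, 5 of the 13 member probes that could be tested were called higher (8.91% of all 31848 tested probes) and 2 were called lower (8.11%). The median difference of the 8 members was 1.62, and that of all tested genes was -0.06. With 3 arrays against 3, an exact two-sided permutation test of a single value cannot give a p below 0.1, and all p-values measure the spread between these 6 mice only.

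**Figure D1:**
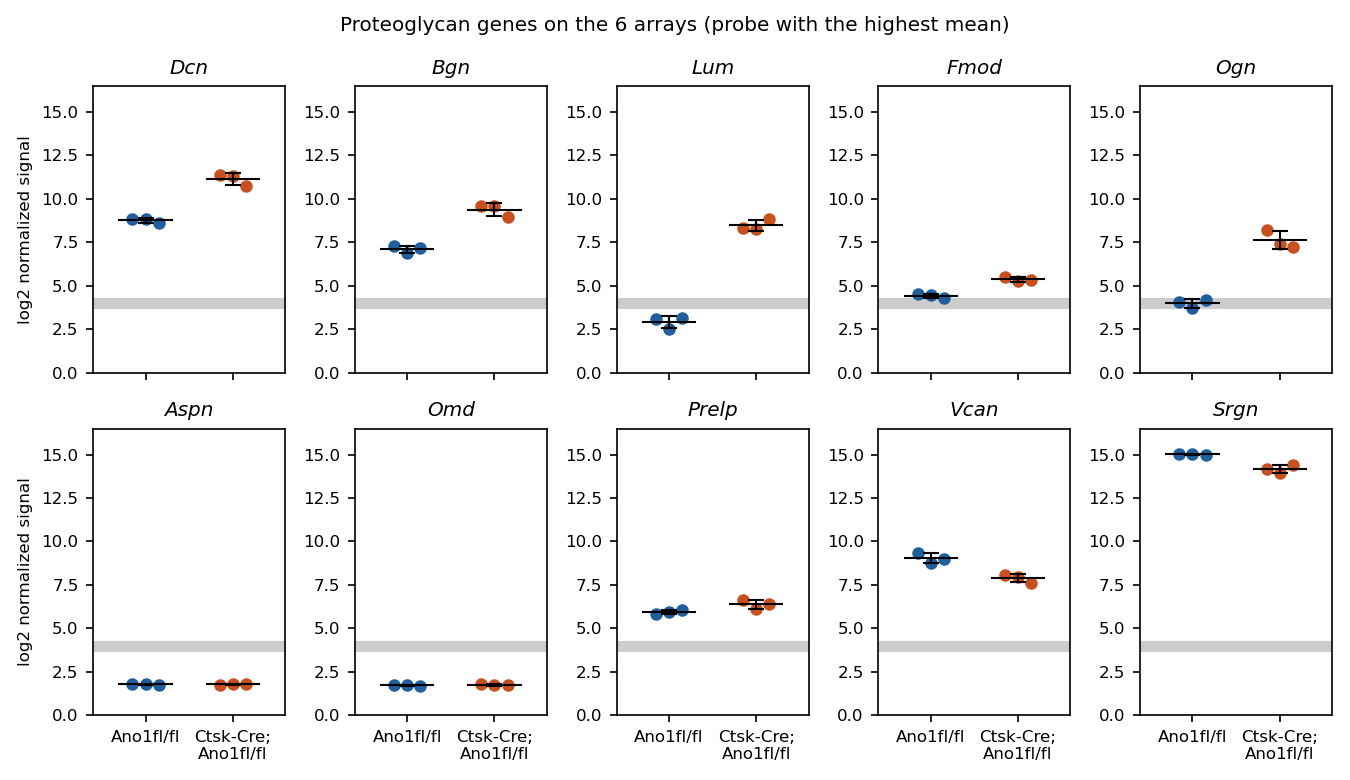
Log2 normalized signal of each member on the 6 arrays, for the probe with the highest mean of its gene, with Ano1fl/fl in blue and Ctsk-Cre;Ano1fl/fl in orange. Bars show the mean and SD of 3 arrays, and the grey band spans the lowest signals that counted as well above background on each array. Dcn, Bgn, Lum and Ogn stand higher on the Ctsk-Cre;Ano1fl/fl arrays, Vcan and Srgn stand lower, and Aspn and Omd lie under the band in both groups.

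Sequence around the gene start is shown for members that moved in opposite directions, so that their start regions can be set beside each other. RefSeq windows of 300 bases (GRCm38.p6), from 250 bases before to 50 after the start, were at hand for 8 of the 10 members, in 9 windows. Dcn and Lum had no entry. Bgn and Ogn rose, while Vcan and the brightest Srgn probe fell. The windows are chrX:73483351-73483650 on the plus strand for Bgn, chr13:49607765-49608064 on the plus strand for Ogn, chr13:89742463-89742762 on the minus strand for Vcan, and chr10:62527396-62527695 on the minus strand for the first of the 2 Srgn windows. Each reads 5′ to 3′ along the gene, and capitals mark any match to 4 motifs searched on either strand. The motif of a TATA box core was TATAAA. The GC box was searched as GGGCGG. Cores that Runx factors bind were searched as TGTGGT. The AP-1 site was searched as TGANTCA.
Bgn: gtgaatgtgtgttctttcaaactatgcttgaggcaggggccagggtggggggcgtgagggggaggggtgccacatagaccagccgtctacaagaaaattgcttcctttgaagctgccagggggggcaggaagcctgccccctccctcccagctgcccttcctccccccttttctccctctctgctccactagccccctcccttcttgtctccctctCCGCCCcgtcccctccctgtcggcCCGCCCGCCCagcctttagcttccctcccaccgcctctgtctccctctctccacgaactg
Ogn: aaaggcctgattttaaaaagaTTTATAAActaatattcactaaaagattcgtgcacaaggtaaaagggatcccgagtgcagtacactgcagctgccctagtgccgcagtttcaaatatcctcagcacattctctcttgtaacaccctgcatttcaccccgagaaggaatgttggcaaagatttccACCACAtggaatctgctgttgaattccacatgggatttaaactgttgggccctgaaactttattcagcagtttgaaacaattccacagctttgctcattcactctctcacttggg
Vcan: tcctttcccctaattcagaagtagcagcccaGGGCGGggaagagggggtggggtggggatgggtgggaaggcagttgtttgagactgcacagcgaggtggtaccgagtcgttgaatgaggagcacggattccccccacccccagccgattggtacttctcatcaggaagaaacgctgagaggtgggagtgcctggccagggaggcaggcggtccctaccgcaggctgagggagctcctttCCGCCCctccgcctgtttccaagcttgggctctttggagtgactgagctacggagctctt
Srgn: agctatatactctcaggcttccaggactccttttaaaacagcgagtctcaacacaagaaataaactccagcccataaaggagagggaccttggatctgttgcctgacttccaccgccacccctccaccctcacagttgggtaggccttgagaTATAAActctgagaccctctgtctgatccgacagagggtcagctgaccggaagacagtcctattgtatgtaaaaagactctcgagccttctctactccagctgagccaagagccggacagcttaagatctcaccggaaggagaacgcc

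The Bgn and Vcan windows held GC boxes and the Ogn and Srgn windows held the TATA box core. Bgn had 3 matches to GGGCGG, of which the last 2 overlap, and Vcan had 2. A match to these letters was present in 35.7% of all 32851 promoter windows of the same length. Ogn had 2 overlapping matches to TATAAA on opposite strands and 1 to TGTGGT, and Srgn had a TATA box core as well. Of all windows 13.6% held the TATA box core, 16.8% the Runx core and 7.8% the AP-1 site, which none of the 9 member windows held. The G and C share was 63.7% for Bgn and 61.0% for Vcan, 42.3% for Ogn and 51.0% for this Srgn window, against a median of 52.7% over all windows. A gene that rose (Bgn) and a gene that fell (Vcan) thus both held GC boxes, and these matches are descriptions of the letters only.

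Of class I, decorin and biglycan transcripts were higher on the Ctsk-Cre;Ano1fl/fl arrays, and asporin was not measurable. Dcn encodes decorin, a collagen-binding proteoglycan that also binds TGF-beta. Its probe, in mm9 at chr10:96980233-96980292, read 8.86, 8.84 and 8.58 on the Ano1fl/fl arrays against 11.37, 11.33 and 10.77 on the Ctsk-Cre;Ano1fl/fl arrays. Every Ctsk-Cre;Ano1fl/fl array was above every control array, with a gap of 1.90 between the nearest. The difference was 2.40 (SE 0.18, 95% interval 1.96 to 2.83, n = 3 per group), a 5.26-fold rise with an adjusted p of 0.000159 in limma. Over 17 other ways of processing the data or choosing the arrays, it ranged from 2.26 to 2.59. Only changes of scaling or background step, the row on the slide as a block and leaving out an array could move it. The other filters, probe choices, tests and the replicate block left it at 2.40 by construction, so they bear on its adjusted p only.

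Bgn encodes biglycan, the close relative of decorin that is abundant in bone and can also signal through Toll-like receptors when released. Its brightest probe (A_52_P162486, mm9 chrX:70738554-70738613) read 7.27, 6.87 and 7.15 on the Ano1fl/fl arrays against 9.58, 9.59 and 8.95 on the Ctsk-Cre;Ano1fl/fl arrays. The groups did not overlap, and the third Ctsk-Cre;Ano1fl/fl array was the lowest of its group, as it was for Dcn. The difference was 2.28 (SE 0.20, adjusted p = 0.000297), or 4.86-fold. Another Bgn probe (A_55_P2715668, chrX:70731578-70731637), which the array files tie to other transcript records than the first, was not well above background on any control array and was so on all 3 Ctsk-Cre;Ano1fl/fl arrays, at 5.02, 5.06 and 4.75. It could be tested only because it was bright in that group. Its fitted difference of 3.22 (adjusted p = 1e-05) is measured against readings under background, and counting those at the lowest signal well above background leaves a rise of at least 1.96-fold, so that with dim groups held at such limits 4 and not 5 member probes passed 2-fold, while the count of 4 genes was the same. With normexp, another background correction, the difference of this probe was 0.55, and from the series matrix, which holds the uncorrected median signal of each spot, it was 0.92, both less than the limit. No array read the last Bgn probe well above background.

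Aspn encodes asporin, which binds collagen and TGF-beta in cartilage and periodontal ligament. Its probe read 1.74 to 1.79 over the 6 arrays, under the lowest signal well above background, so no difference can be given. The level of its transcript was below what the arrays could measure in either group.

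In class II, lumican rose most, fibromodulin and PRELP by less than 2-fold, and osteomodulin was not measurable. Lum encodes lumican, a keratan sulfate proteoglycan that spaces collagen fibrils in the cornea, skin and bone. The probe (mm9 chr10:97035210-97035269) read 3.06, 2.51 and 3.12 on the Ano1fl/fl arrays, none of them well above background, against 8.31, 8.25 and 8.85 on the Ctsk-Cre;Ano1fl/fl arrays, all of them well above it. Lum was at least 22.7-fold higher on the Ctsk-Cre;Ano1fl/fl arrays (adjusted p = 1.74e-05), counting each control array at its lowest signal well above background, where the p is that of the fitted difference of 5.58. This limit of 4.50 on the log2 scale holds for the processed signal only, since the difference was 2.48 with normexp and 3.31 from the series matrix. Unlike Dcn and Bgn, it was highest on the third Ctsk-Cre;Ano1fl/fl array.

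Fmod encodes fibromodulin, which guides collagen cross-linking in tendon. The levels at its probe (mm9 chr1:135943998-135944057) were 4.50, 4.44 and 4.26 on the Ano1fl/fl arrays against 5.50, 5.26 and 5.32 on the Ctsk-Cre;Ano1fl/fl arrays. All 6 values were well above background but near its limit, and the groups did not overlap. The difference was 0.96 (SE 0.10, 95% interval 0.71 to 1.21, adjusted p = 0.00063), or 1.94-fold. It passed 2-fold when the first Ano1fl/fl array or the second Ctsk-Cre;Ano1fl/fl array was left out, at 1.01 each time, and with the slide row as a block, at 1.097 (adjusted p = 0.00478). It was 0.32 with normexp and 0.42 from the series matrix.

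Prelp encodes PRELP, which anchors basement membranes to the collagen beneath. Its brightest probe (A_52_P486260, mm9 chr1:135806934-135806993) read 5.80, 5.92 and 6.04 on the Ano1fl/fl arrays against 6.62, 6.10 and 6.41 on the Ctsk-Cre;Ano1fl/fl arrays. The nearest arrays of the groups were only 0.06 apart. The difference of 0.46 (SE 0.15, 95% interval 0.11 to 0.81) had an adjusted p of 0.0376, and it did not pass the test under 11 of 17 alternatives, where adjusted p reached 0.268. These alternatives included leaving out any of the 3 Ano1fl/fl arrays, with 0.40 to 0.52, or Ctsk-Cre;Ano1fl/fl array 1 or 3, with 0.34 and 0.44. Both other Prelp probes were not well above background on any array.

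Omd encodes osteomodulin, a keratan sulfate proteoglycan of mineralised tissue that osteoblasts and osteocytes make. Its probe read 1.69 to 1.81 over all arrays, not well above background on any. Of 8 osteoblast markers, Dmp1, Phex, Sost and Ibsp were likewise not well above background on any array, and Alpl, the alkaline phosphatase, was the only called member of that list, higher by 5.52. Runx2, the transcription factor that commits cells to the osteoblast line, passed the test downward at -0.46 (adjusted p = 0.0484), and Sp7, which encodes osterix, differed by -0.08 (adjusted p = 0.643).

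Osteoglycin, the class III member, was called higher. Ogn encodes a small keratan sulfate proteoglycan first described in bone. The probe (mm9 chr13:49719549-49719608) read 4.08, 3.69 and 4.18 on the Ano1fl/fl arrays, with 1 of the 3 well above background, against 8.20, 7.41 and 7.21 on the Ctsk-Cre;Ano1fl/fl arrays. The gap between the nearest arrays of the groups was 3.04, although the Ctsk-Cre;Ano1fl/fl arrays spanned 0.99 among themselves, the widest span of any tested member probe. The probe could be tested only because it was bright in the latter group. The fitted difference was 3.63 (SE 0.27, adjusted p = 0.000157), of which the size is uncertain because the control level lay under background on 2 of 3 arrays. It was 1.75 with normexp and 2.22 from the series matrix, both less than the 2.26 and 2.32 of Dcn under the same settings, so the place of Ogn among the members depends on the background step.

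**Figure D2:**
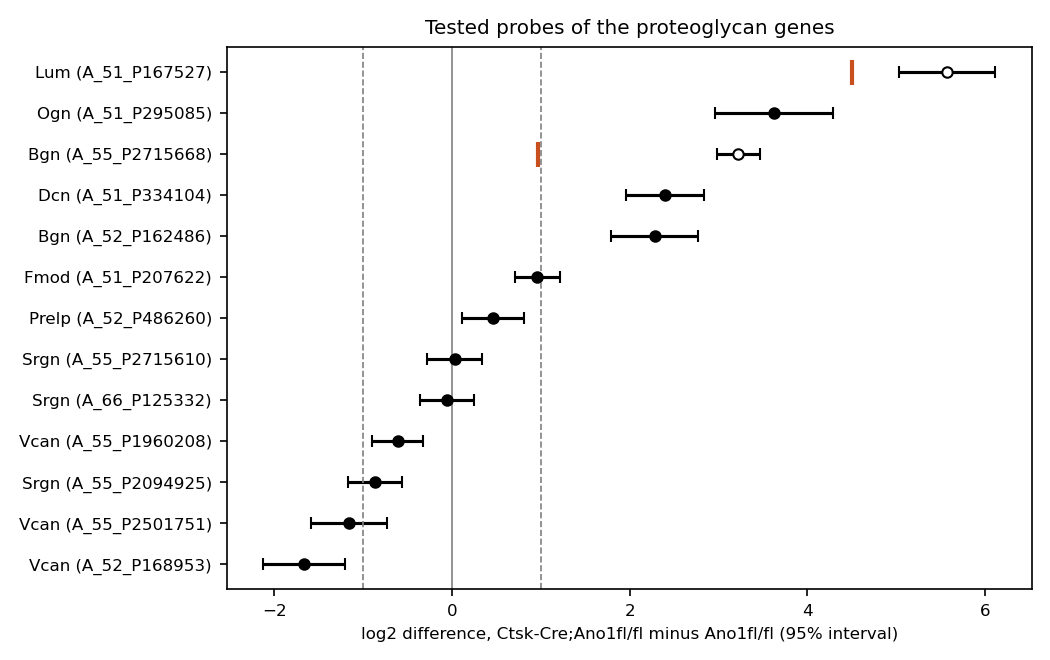
Log2 difference between groups (Ctsk-Cre;Ano1fl/fl minus Ano1fl/fl) with its 95% interval for the 13 member probes that were tested, with dashed lines at 2-fold. Open points are probes that were not well above background on any Ano1fl/fl array, for which the orange tick gives the lower limit, 4.50 for Lum and 0.97 for the second Bgn probe. Probes of Vcan lie below 0 together, while those of Srgn lie apart.

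Versican fell, by all 3 of its probes. Vcan encodes the large proteoglycan whose middle exons, which carry most of the chondroitin sulfate sites, are spliced in or out. The probe with the highest mean (A_55_P2501751, mm9 chr13:89795080-89795139) read 9.33, 8.78 and 8.99 on the Ano1fl/fl arrays against 8.08, 7.93 and 7.62 on the Ctsk-Cre;Ano1fl/fl arrays. The groups did not overlap, and the difference was -1.16 (SE 0.18, adjusted p = 0.0024), or 2.23-fold lower. This fold was near the limit for a call, since with normexp the difference was -0.97 (adjusted p = 0.000903) and no member gene was called lower.

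The other Vcan probes lie upstream of the first along the gene, which is on the minus strand. Probe A_52_P168953, whose ends are 5855 bases apart on the genome (chr13:89865266-89871120) and which thus spans a splice junction, read 6.89, 6.40 and 6.24 against 5.04, 4.84 and 4.66, a difference of -1.67 (SE 0.19, adjusted p = 0.000735). Probe A_55_P1960208 (chr13:89851810-89851869) read 7.63, 7.46 and 7.32 against 6.95, 6.94 and 6.69, a difference of -0.61 (SE 0.12, adjusted p = 0.00583). With the slide row as a block the last of these was -0.46 with an adjusted p of 0.0759. All 3 were lowest on the third Ctsk-Cre;Ano1fl/fl array, and none overlapped between groups.

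The fitted falls of the Vcan probes ranged from -0.61 to -1.67. Within each array the distance between 2 probes was taken, and this distance differed between groups by 1.06 for A_55_P1960208 minus A_52_P168953, by -0.54 for A_55_P2501751 minus A_55_P1960208 and by 0.51 for A_55_P2501751 minus A_52_P168953. In each case the groups did not overlap, with an exact two-sided permutation p of 0.1, the smallest that 3 against 3 allows, and 0.117 after Benjamini-Hochberg adjustment over 7 probe pairs of Bgn, Vcan and Srgn. With normexp the differences of the 3 probes lay closer together, at -0.97, -0.73 and -0.42. The array files list A_55_P2501751 for the transcript NM_001081249 and both other probes for NM_172955, and all 3 also for NM_019389, NM_001134474 and NM_001134475. These lists are short, and a record absent from one need not be missed by the probe. Which splice forms moved cannot be told from these probes.

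**Figure D3:**
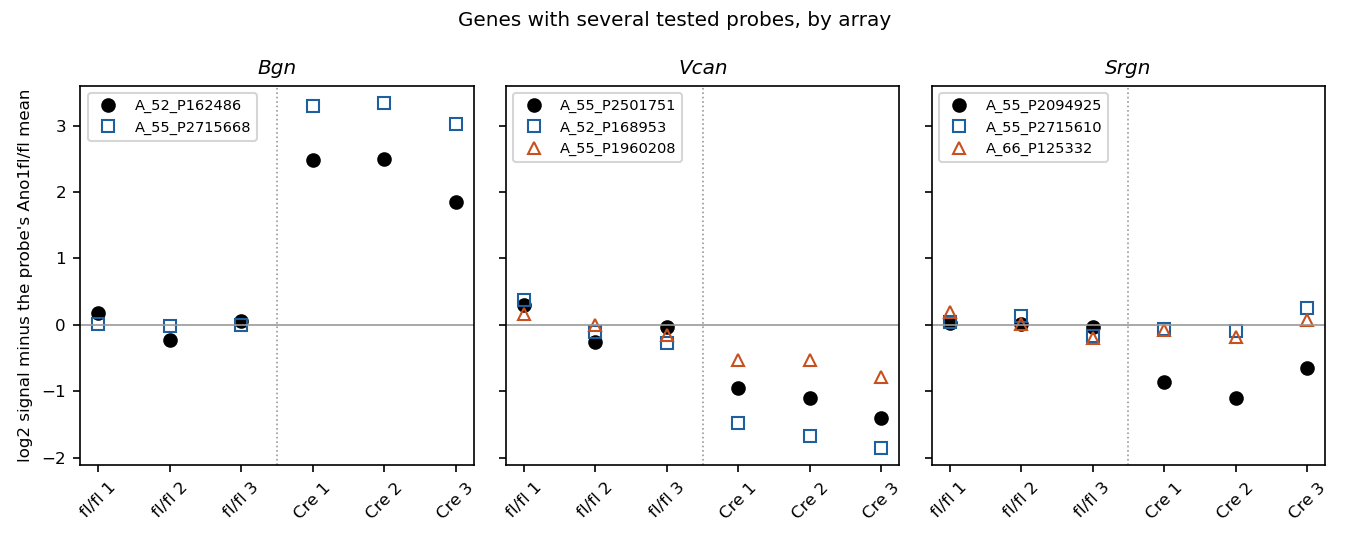
Log2 signal of each tested probe of Bgn, Vcan and Srgn on each array, as its distance from the mean of the Ano1fl/fl arrays for that probe (fl/fl, Ano1fl/fl; Cre, Ctsk-Cre;Ano1fl/fl). All 3 Vcan probes lie below 0 on the Ctsk-Cre;Ano1fl/fl arrays, whereas for Srgn A_55_P2094925 lies below 0 there and the other probes lie about it.

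Serglycin was lower by the brightest of its 3 probes, and the others did not pass the test. Srgn encodes the core protein that carries sulfated chains inside granules of mast cells, neutrophils, platelets and macrophages. Probe A_55_P2094925 (mm9 chr10:61957432-61957491), listed for the RefSeq transcript NM_011157, read 15.05, 15.03 and 14.98 on the Ano1fl/fl arrays against 14.16, 13.92 and 14.37 on the Ctsk-Cre;Ano1fl/fl arrays. No spot was saturated, the control arrays lay within 0.07 of each other, and the groups did not overlap. The difference was -0.87 (SE 0.13, 95% interval -1.17 to -0.57, adjusted p = 0.00185), or 1.83-fold lower.

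Both other Srgn probes lie upstream of it along the gene and carry other transcript records. Probe A_55_P2715610 (chr10:61970483-61970542) read 7.05, 7.13 and 6.84 against 6.94, 6.91 and 7.26, a difference of 0.03 (95% interval -0.28 to 0.34, adjusted p = 0.859). Probe A_66_P125332 read 5.69, 5.52 and 5.30 against 5.43, 5.32 and 5.57, a difference of -0.06 (95% interval -0.37 to 0.24, adjusted p = 0.702). The groups overlapped for both. Within arrays, the brightest probe moved by -0.90 relative to A_55_P2715610 and by -0.81 relative to A_66_P125332, in each case with groups that did not overlap (exact permutation p = 0.1, adjusted 0.117). The mean of all Srgn probes differed by -0.30 with an adjusted p of 0.0751, so the fall of Srgn rests on its brightest probe.

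Of the small leucine-rich members all but Bgn, which is on chromosome X, lie with relatives in 3 runs along the genome, and in each run some genes passed the test upward while others could not be measured. Positions are those of the probes in mm9. On chromosome 10, Dcn and Lum, whose probes are 55.0 kb apart, both rose, while Kera and Epyc, which encode keratocan and epiphycan and lie 96.0 and 163.7 kb from Dcn, were not well above background on any array. On chromosome 13, Ogn rose, while Ecm2, Aspn and Omd, spread over the 91.5 kb before it, were not well above background on any array. On chromosome 1, Prelp and Fmod differed by 0.46 and 0.96 and Optc, which encodes opticin, stayed under the background limit.

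**Figure D4:**
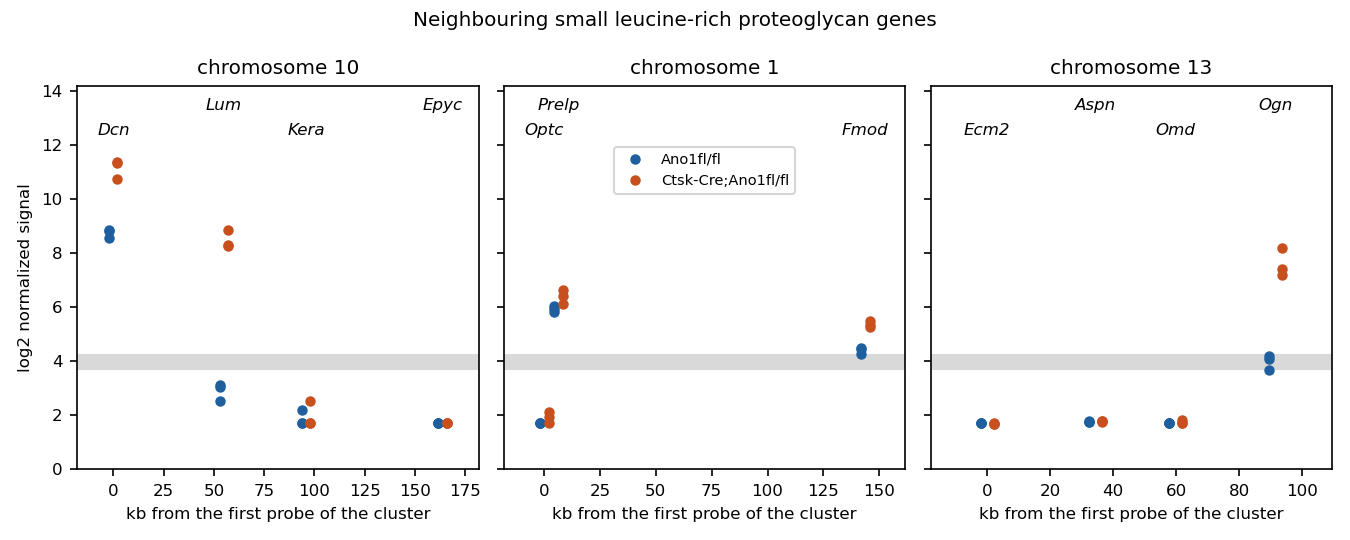
Log2 normalized signal of the genes in 3 runs of small leucine-rich proteoglycan genes on the 6 arrays, by distance in kb from the first probe of the run, with the points of the groups set slightly apart. The grey band spans the lowest signals well above background. Of 11 genes, 6 (Kera, Epyc, Optc, Ecm2, Aspn and Omd) lie under the band on all arrays.

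Marker genes of stromal cells moved with the rising members. Of 17 stromal markers, all tested, 14 were called higher and none lower, and their summed signal was 24130 to 26490 on the Ano1fl/fl arrays against 153000, 120300 and 102200 on the Ctsk-Cre;Ano1fl/fl arrays 1 to 3. Of the members that passed the test upward, Dcn and Ogn followed the same order over the Ctsk-Cre;Ano1fl/fl arrays as this sum, and Bgn, Lum, Fmod and Prelp did not. The brightest probe of Vcan, which fell, followed it as well. Postn and Col1a1, which encode periostin and a chain of type I collagen, rose by 6.50 and 6.12. Postn was well above background on only 1 of 3 Ano1fl/fl arrays, so the size of its rise is uncertain. Lepr passed the test downward at -0.69, and Thy1 differed by 0.21 (adjusted p = 0.288). Of 8 chondrocyte markers, Acan, Matn1, Matn3, Col9a1 and Col10a1 were not well above background on any array, and Col2a1, itself under background on all Ano1fl/fl arrays, was the only 1 called. The summed signal of the chondrocyte list was 90.6 to 105 on the Ano1fl/fl arrays against 158 to 211 on the others, and that of the osteoblast list was 206 to 255 and 988 to 1408. Alpl, at 4.31 to 4.58 and 9.65 to 10.22 on the log2 scale, was the only tested osteoblast marker that rose. In RNA from whole cultures, fewer cells of a type and less RNA per cell cannot be told apart, and the part of these cell types in the members' rise was not tested.

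Of the blood cell marker lists, some had members called lower, as Vcan was, and 1 had members called higher only. Of 10 neutrophil markers 5 were called lower and none higher, while at any fold 7 passed the test downward and Ltf, which encodes lactoferrin, passed it upward at 0.33 (adjusted p = 0.0288). The summed signal of this list was 354200 to 372400 on the Ano1fl/fl arrays against 214300 to 268600 on the Ctsk-Cre;Ano1fl/fl arrays. All 6 markers of megakaryocytes and platelets passed the test downward, 4 of them by more than 2-fold, with sums of 123900 to 141700 and 53600 to 62340. Of 8 markers of mast cells and basophils 6 were tested, 4 passed the test downward and 3 of these were called lower, with sums of 4297 to 5341 and 1247 to 2507, while Cma1 and Mcpt4, which encode mast cell proteases, stayed near background throughout. Of 7 macrophage markers 2 were called lower and none higher, with sums of 350800 to 371800 and 369600 to 417400. All 4 B cell markers were called higher, with a median difference of 2.82 and sums of 7397 to 8908 and 28320 to 55450. Of 6 markers of T and NK cells 1 was called higher and 1 lower, with sums of 2828 to 3064 and 1109 to 1518, and of 5 tested endothelial markers 1 was called lower and none higher, with sums of 6111 to 7722 and 2923 to 3517. The part of these cells in the lower Vcan and Srgn signals was not tested.

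Granule proteins that serglycin packs moved in both directions. Of 15 listed, 13 were tested, 6 were called lower and 3 higher, with a median difference of -0.32 beside -0.06 for all tested genes. The falls were led by Prtn3, Mpo and Ctsg, which encode proteinase 3, myeloperoxidase and cathepsin G of neutrophils, at -3.46, -3.41 and -3.40, and all 3 are also among the neutrophil markers. The rises were those of Tnf at 4.23, the chemokine gene Ccl3 at 2.73 and the granzyme gene Gzmb at 1.72. Lyz2, the lysozyme of myeloid cells, differed by 0.13 (adjusted p = 0.182).

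Relatives of the members outside the set were called in both directions. Among 9 other small leucine-rich proteoglycans only 3 were tested, and Podnl1, which encodes podocan-like 1, was at least 10.3-fold higher (adjusted p = 1.24e-05). The list of 17 other matrix proteoglycans also counts Smoc1 and Smoc2, whose products are matrix proteins not classed as proteoglycans. Of this list 13 were tested, of which 5 were called higher and 2 lower. Among the 5, 4 were not well above background on all Ano1fl/fl arrays. Smoc2 was at least 3.97-fold higher, the endothelial proteoglycan gene Esm1 differed by 3.11 and Smoc1 by 2.73, the last 2 with 1 of 3 Ano1fl/fl arrays well above background. The falls were those of Prg3 and Prg2, at -2.81 and -2.28, which encode the major basic proteins of eosinophils. Acan, the gene of aggrecan, the large proteoglycan of cartilage, could not be tested, since its probe stayed near background throughout.

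Cell surface proteoglycans and hyaluronan genes were mixed. Of 12 tested cell surface proteoglycans 4 were called higher and 1 lower, with syndecan 2 (Sdc2) at 4.26, glypican 4 (Gpc4) at 3.89 and syndecan 1 (Sdc1) at 1.64, and glypican 2 (Gpc2) at -1.40. The hyaluronan receptor Cd44 differed by -0.03 (adjusted p = 0.845). Among 7 tested hyaluronan genes, Tnfaip6, which encodes the hyaluronan-binding TSG-6, rose by 1.89, and Hmmr, a hyaluronan-binding protein of the mitotic spindle, fell by 1.61. The medians of these lists were 0.26 and 0.16.

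Genes that build the sugar chains moved in both directions, with medians of 0.11 for the linker with chondroitin and dermatan sulfate, 0.17 for keratan sulfate and -0.005 for sulfate supply. Of 21 tested genes for the linker and for chondroitin and dermatan sulfate, 3 were called higher and 2 lower. Chst3, a chondroitin 6-O-sulfotransferase, rose by 2.67, the polymerising factor gene Chpf by 1.83 and Ust, a uronyl 2-sulfotransferase, by 1.27, while the sulfotransferase genes Chst13 and Chst7 fell by 2.29 and 1.54. Xylt1, a xylosyltransferase that starts the chain, differed by -0.10 (adjusted p = 0.791) at a level near background. Xylt2, the other xylosyltransferase gene of the list, was bright and passed the test upward at 0.87 (adjusted p = 0.000803), less than 2-fold. Of 7 tested keratan sulfate genes, the sulfotransferase gene Chst2 rose by 1.77 and the galactosyltransferase gene B4galt4 fell by 1.29. In their dimmer group, Chst2 and Chst13 were well above background on 1 of 3 arrays. None of 7 tested genes for sulfate uptake and activation was called in limma at more than 2-fold. At any fold 1 passed upward and 2 downward, and at an unadjusted p under 0.05 there were 2 each way.

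Among the pathway lists, those of proteinases with cofactors and of binding partners held the largest shares called higher, 76.9% and 62.5% of those tested. The former list also counts Pcolce and Pcolce2, whose products are enhancers of procollagen processing. Both shares include genes that could be tested only because they were bright on the Ctsk-Cre;Ano1fl/fl arrays. These were 5 of the 10 called for processing and 5 of the 15 called for binding. With the filter on all 6 arrays the shares were 62.5% of 8 and 52.6% of 19 tested genes. Of 13 tested proteinases and cofactors 10 were called higher and none lower, with a median difference of 3.46, or 2.20 with dim groups held at their limits. Mmp2, the gelatinase A gene, was at least 25.0-fold higher, the procollagen proteinase enhancer gene Pcolce differed by 4.84 and the aggrecanase gene Adamts4 by 4.67, for which 2 of 3 Ano1fl/fl arrays were well above background. Of 24 tested collagens, growth factors and receptors that bind the members, 15 were called higher and none lower, with a median of 3.44. The matrix protein gene Fbln2 was at least 67.0-fold higher, the decorin-binding Wisp1 at least 75.4-fold, and Col1a1 differed by 6.12. Of the 28 genes listed as partners 7 are also on the stromal list. Tgfb1 and the receptor gene Tlr4 differed by 0.13 and 0.09 (adjusted p = 0.225 and 0.611), while Tlr2 passed the test at 0.79 (adjusted p = 0.0156). Of the other TGF-beta genes, Tgfb2 rose by 4.07 (adjusted p = 0.000108) and Tgfb3 differed by 0.80 (adjusted p = 0.119). Tgfb2 was well above background on 2 of 3 Ano1fl/fl arrays, and its difference was 2.03 with normexp.

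Breakdown of the sugar chains was covered by 18 genes, all tested, of which 4 were called higher and 1 lower, with a median of 0.61. With dim groups held at their limits 3 were higher by more than 2-fold, and with the filter on all 6 arrays 2 were. The hyaluronan-degrading gene Cemip was at least 2.94-fold higher, the lysosomal arylsulfatase B gene Arsb rose by 3.67, and Hyal3, a hyaluronidase gene, was at least 1.61-fold higher. Hpse, the heparanase gene, fell by 1.19. All called genes named from these lists kept their direction under 75th percentile scaling, normexp, the series matrix values, the mean of all probes and with any array left out. With normexp, Smoc2, Gpc2, Tnfaip6, Chst13, Chst2, Cemip and Hyal3 changed by less than 2-fold, at 0.85, -0.74, 0.78, -0.75, 0.50, 0.85 and 0.38. The limits given for Podnl1, Mmp2, Fbln2 and Wisp1 hold for the processed signal only, since the differences of these genes were smaller than the limits with normexp, at 1.502, 2.58, 3.99 and 4.06, and from the series matrix, at 2.07, 3.34, 4.79 and 4.72, and the same was true of the limits for Smoc2, Cemip and Hyal3. Esm1, Smoc1, Adamts4, Sdc2, Gpc4 and Prg3 also lay nearer to 0 with normexp, at 1.11, 1.12, 2.66, 2.71, 2.22 and -1.75. The 3 tested Arsb probes ranged from 1.89 to 3.67 and the 3 Hmmr probes from -2.52 to -1.61. The mean over all probes on the array, tested or not, was nearer to 0 for several genes, at 1.26 for Smoc2, 1.495 for Chst3, 2.44 for Cemip, 2.28 for Arsb, 2.52 for Gpc4, 4.51 for Wisp1 and 4.22 for Col1a1.

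**Figure D5:**
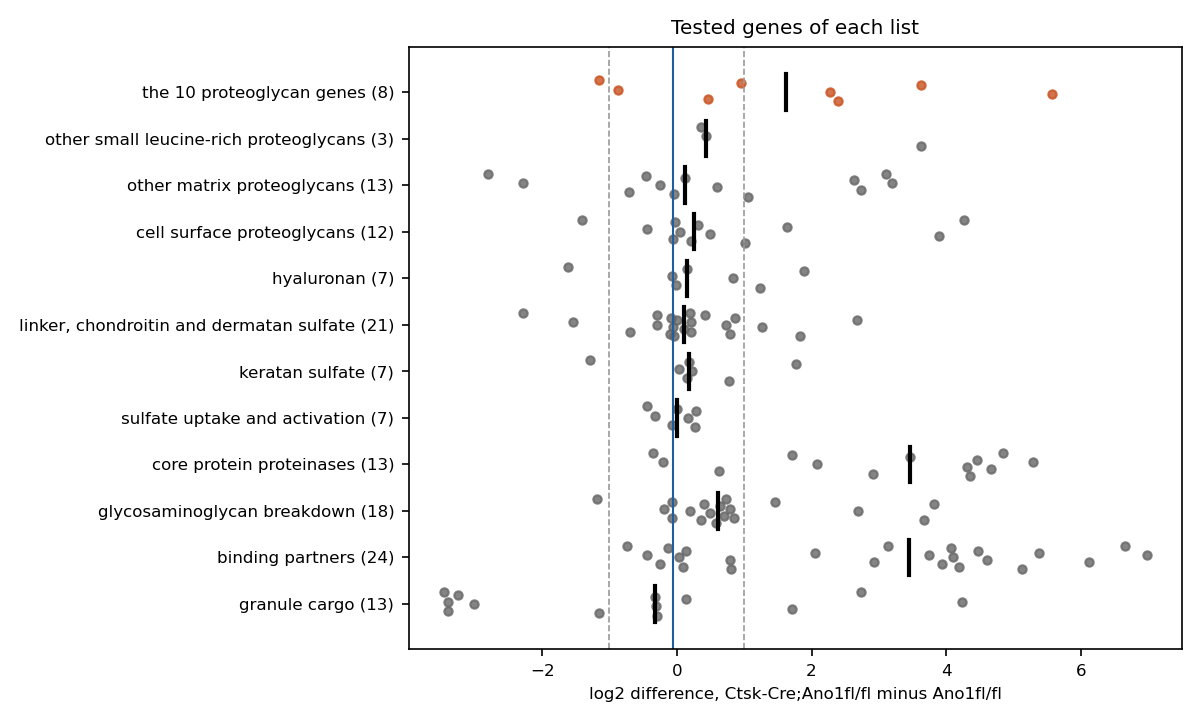
Log2 difference between groups (Ctsk-Cre;Ano1fl/fl minus Ano1fl/fl) of every tested gene of the 10 members (orange) and of each pathway list (grey), with the number of tested genes in parentheses. Black bars are medians of fitted values, the blue line is the median of all tested genes at -0.06, and dashed lines mark 2-fold. The medians of core protein proteinases and of binding partners, 3.46 and 3.44, lie farthest to the right among the lists drawn, which leave out the cell type markers, and that of granule cargo, -0.32, lies to the left of the blue line.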

How the data were processed

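Total RNA of 6 osteoclast cultures was labelled with Cy3 and read on Agilent mouse arrays. The authors deposited scanner intensities for each array, read with Agilent Feature Extraction 10.7.1.1 per the submitters' processing notes, in which the processed signal has background and trends within the array removed. The deposited series matrix equals the median intensity of each spot (largest difference 0) and served as an alternative. After log2 transformation the processed signals were quantile normalized, as the methods state, and the spots of each probe were averaged, with outlier spots treated as missing and 14 probes with a missing value left out. Values near background are surrogates set by the scanner software, so differences of dim probes depend on the background step.

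A probe was tested where at least 0.5 of its spots were well above background on all 3 arrays of a group, and a gene by its probe with the highest mean. Where a gene was dim on every array of a group, its fold is given as "at least", with each such array counted at its lowest signal well above background or at the probe's own value if higher. Such limits hold for the processed signal, and the adjusted p beside them belongs to the fitted difference. Groups were compared with limma 3.58.1 in R 4.3.3 (files read with the data.table package, version 1.17.8), checked on simulated data. Python 3.11.15, pandas 2.3.3 and matplotlib 3.10.9 were used for sequences and plots.

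Members, lists and markers were chosen with earlier results of these data known. The text names all members and their probes, their neighbours in the genome, and from each list up to 3 rises and 3 falls that were called, had groups that do not overlap and were measured above background on every array of the brighter group. Others named (such as Lyz2, Cd44, Xylt1, Xylt2, Pcolce2, Tgfb1, Tgfb2, Tgfb3, Tlr4, Tlr2, Acan and the marker genes) were picked after their values were seen. The array files gave gene names and mm9 positions, exon and UTR annotation was not used here, and all 13 member probes with a RefSeq accession matched the same symbol in the RefSeq gene table. Alternatives were 75th percentile scaling, normexp with an offset of 50, the series matrix, other filters, folds of 1.5 and 3, all probes, the methods' t-test, limma with a trend, a replicate block and each array left out in turn. The slide row was added as a block after seeing the data.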

Additional observations from a re-analysis of the deposited data

How the results depend on the processing

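Dcn, Bgn, Lum, Fmod, Ogn and Vcan kept their direction and passed the test under all alternatives that gave a value. Counts past a fold moved with the processing. With normexp, 1307 tested genes were called higher and 664 lower, and 0 member genes and 0 member probes were called lower. From the series matrix 1 member probe and 825 tested genes were called lower. A filter asking for all 6 arrays called 2 member genes, 2 member probes and 1308 tested genes higher. Lum, Ogn and Bgn probe A_55_P2715668 were then not tested, and 18644 genes were tested in all. At 1.5-fold 2 member genes, 4 member probes and 3301 tested genes were lower, and at 3-fold 0, 1 and 546. The share of higher among called genes was 57.9%, against 48.0% at 1.5-fold and 72.4% at 3-fold. The difference of Srgn probe A_55_P2715610 turned to -0.0302 with 75th percentile scaling and ran from -0.0791 to 0.0938 with an array left out, and that of A_66_P125332 ran from -0.165 to 0.0325 and was 0.143 with the slide row as a block. The cause was not tested. With an array left out, 4 to 5 member genes were called higher.

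Row 1 of the slide held 2 Ano1fl/fl arrays and row 2 the other 4, so row and group are partly tied. Arrays with the same number did not deviate together (correlations 0.00, -0.06 and -0.08). With a replicate block 2031 tested genes were called higher and 1471 lower, member counts were as before, and Prelp had an adjusted p of 0.0686. By the methods' t-test 11541 of 20645 genes and all 8 tested members had p under 0.05 before adjustment, and with adjustment and the 2-fold limit it called 1938 genes higher and 1376 lower. Signal near background limits Aspn, Omd, Fmod and the control level of Lum and Ogn.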
